A study of Mus musculus with 20 samples.

Results

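The immunoproteasome is a form of the proteasome in which inducible subunits replace their constitutive counterparts, and its transcripts were followed here in mouse plantaris muscle. The set held 9 genes by name: the inducible catalytic subunits Psmb8, Psmb9 and Psmb10, the inducible activator subunits Psme1 and Psme2, the constitutive catalytic subunits Psmb5, Psmb6 and Psmb7, and the constitutive activator subunit Psme3. Of these, 8 were matched to a row of the count tables, which held 54532 genes, and the levels of Psmb9 were not analysed here. The members were chosen by name with earlier results of these data known, namely the levels of Psmb8 and Psmb10 in overloaded muscles with and without the miR-1 mimic. Values of that contrast are therefore a description and carry no test.

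The study compared plantaris muscles of 10 male C57BL/6J mice aged 5 months, of which 5 had sham surgery and 5 had bilateral synergist ablation, which removes part of the neighbouring calf muscles and places the plantaris under mechanical overload (MOV). During surgery each mouse received a control lentivirus in the left plantaris and a lentivirus coding for a mimic of miR-1, a microRNA abundant in skeletal muscle, in the right, so every mouse gave 1 control and 1 mimic muscle and the muscles were taken 10 days later. The 4 groups of 5 libraries are called sham control and sham mimic for sham mice, and MOV control and MOV mimic for overloaded mice, and libraries are numbered from 1 to 5 in each group as in the labels. All 20 muscles carried a virus with a TurboGFP reporter under a CMV promoter, which is not restricted to muscle fibres, and the methods describe GFP in part of the fibres only.

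Proteasomes degrade tagged proteins inside a 20S barrel, where the beta rings hold the catalytic subunits. Psmb5, Psmb6 and Psmb7 code for the constitutive chymotrypsin-like, caspase-like and trypsin-like subunits, and interferon gamma is known to induce Psmb8, Psmb9 and Psmb10, which take their places in newly built barrels. Psme1 and Psme2 code for PA28 alpha and beta, a ring that caps the barrel and is also induced by interferon gamma, whereas Psme3 codes for the nuclear PA28 gamma. Immunoproteasomes are best known for making peptides for MHC class I, and muscle fibres rely mainly on constitutive proteasomes.

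Because the inducible subunits were correlated across libraries, the promoters were searched for the letters of the interferon-stimulated response element (ISRE, GAAA NN GAAA), the gamma-activated site (GAS, TTCNNNGAA) and the antioxidant response element (TGACNNNGC), which is also bound by the regulator of constitutive proteasome genes. Both strands were searched from 250 bases before to 50 bases after the start, with RefSeq promoters of build GRCm38.p6. Of the 8 genes matched to the tables, 7 had a promoter entry, and Psmb7 had none. Among 32851 promoters of the same length, 3.44% held the ISRE letters, 8.30% the GAS letters and 12.4% the antioxidant response letters. These are the matching windows, with the motif in capitals and positions counted from 1 at the start (-1 is the base before it).
Psmb8, GAS at -97, chr17:34198088-34198116, plus strand: tcctccgctgTTCCCAGAAgatgcccccc
Psme1, ISRE on the opposite strand at 10, chr14:55578493-55578522, plus strand: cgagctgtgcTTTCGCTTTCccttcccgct
Psmb5, antioxidant response letters at -47, chr14:54618024-54618052, minus strand: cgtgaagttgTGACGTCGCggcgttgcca
Psmb6, antioxidant response letters at -9, chr11:70525338-70525366, plus strand: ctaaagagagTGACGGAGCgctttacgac
Positions are counted from the start that the promoter entry uses. For Psmb6 that start is at 70525357, downstream of the start of the gene in the annotation, 70525324, so the match begins at position 25 of the annotated gene, and for the others the starts are the same.
The promoters of Psmb10, Psme2 and Psme3 held none of the 3 motifs in this window, and neither did that of Psmb9, whose levels were not analysed. The matches describe letters only.

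Library totals ranged from 12036360 to 23056525 counts, and the members had between 77 and 3989 counts in a library. Levels are given as CPM, a gene's count scaled to the size of its library after trimmed mean of M-values normalization. Gene positions are those of GRCm38. Markers of the labelled tissue were abundant: 8 genes of skeletal muscle fibres, among them Acta1 and Ckm, summed to between 64958 and 180384 CPM in every library. The libraries were made from whole muscle, so more cells of a type and more RNA per cell cannot be told apart.

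Psmb8 (ENSMUSG00000024338, chr17:34198195-34201454), the inducible chymotrypsin-like subunit, was high in 3 MOV mimic libraries. In libraries 1 to 5 it was at 8.32, 8.19, 18.1, 10.4 and 25.3 CPM in sham control and at 5.86, 9.67, 26.9, 9.05 and 37.5 CPM in sham mimic. It was at 15.4, 17.7, 12.02, 25.3 and 7.14 CPM in MOV control and at 47.3, 59.9, 10.3, 96.2 and 9.69 CPM in MOV mimic. Libraries 1, 2 and 4 of MOV mimic lay above all 15 libraries of the other groups, while libraries 3 and 5 lay inside the range of each other group. Between the lowest and the highest of the 20 libraries Psmb8 varied 16.4-fold. The mean was 44.7 ± 36.4 CPM in MOV mimic and 15.5 ± 6.76 CPM in MOV control, beside 17.8 ± 13.7 and 14.1 ± 7.48 CPM in the mimic and control muscles of sham mice (SD, n = 5 each).

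Psmb10 (ENSMUSG00000031897, chr8:105935728-105938392), the inducible trypsin-like subunit, had the widest range of the members, 18.2-fold over 20 libraries. It was at 25.5, 16.2, 39.1, 24.2 and 50.3 CPM in sham control and at 23.7, 23.7, 64.1, 17.5 and 98.9 CPM in sham mimic. After overload it was at 64.9, 47.6, 27.7, 91.9 and 17.1 CPM in MOV control and at 160.2, 109, 34.4, 294 and 29.0 CPM in MOV mimic. The same 3 MOV mimic libraries, 1, 2 and 4, were highest in the series, and libraries 3 and 5 again overlapped the other groups. In each sham group libraries 3 and 5 were highest, and in MOV control library 4 was highest and library 5 lowest. The mean was 125 ± 109 CPM in MOV mimic and 49.8 ± 29.8 CPM in MOV control, beside 45.6 ± 35.1 and 31.1 ± 13.6 CPM in the mimic and control muscles of sham mice (SD, n = 5 each).

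Psme1 (ENSMUSG00000022216, chr14:55578494-55581527) and Psme2 (ENSMUSG00000079197, chr14:55587440-55591101), neighbours on chromosome 14, code for the 2 subunits of the inducible PA28 cap. Psme1 was at 66.3, 42.4, 70.1, 47.0 and 65.4 CPM in sham control and at 57.5, 42.0, 95.7, 42.1 and 98.8 CPM in sham mimic, and at 60.3, 58.6, 39.1, 76.9 and 53.8 CPM in MOV control and 129.6, 115, 53.2, 218 and 86.9 CPM in MOV mimic. It varied less than the catalytic subunits, 5.59-fold over 20 libraries, and MOV mimic libraries 1, 2 and 4 again lay above the 15 libraries of the other groups. Psme2 was at 13.1, 22.9, 24.2, 18.9 and 23.5 CPM in sham control and at 12.3, 16.3, 24.7, 14.5 and 46.8 CPM in sham mimic. It was at 21.3, 33.6, 22.0, 53.4 and 22.1 CPM in MOV control and at 58.9, 78.0, 19.97, 89.6 and 19.6 CPM in MOV mimic. Its range was 7.27-fold, and the same 3 MOV mimic libraries lay above all libraries of the other groups, MOV control library 4 being closest to them.

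**Figure D1:**
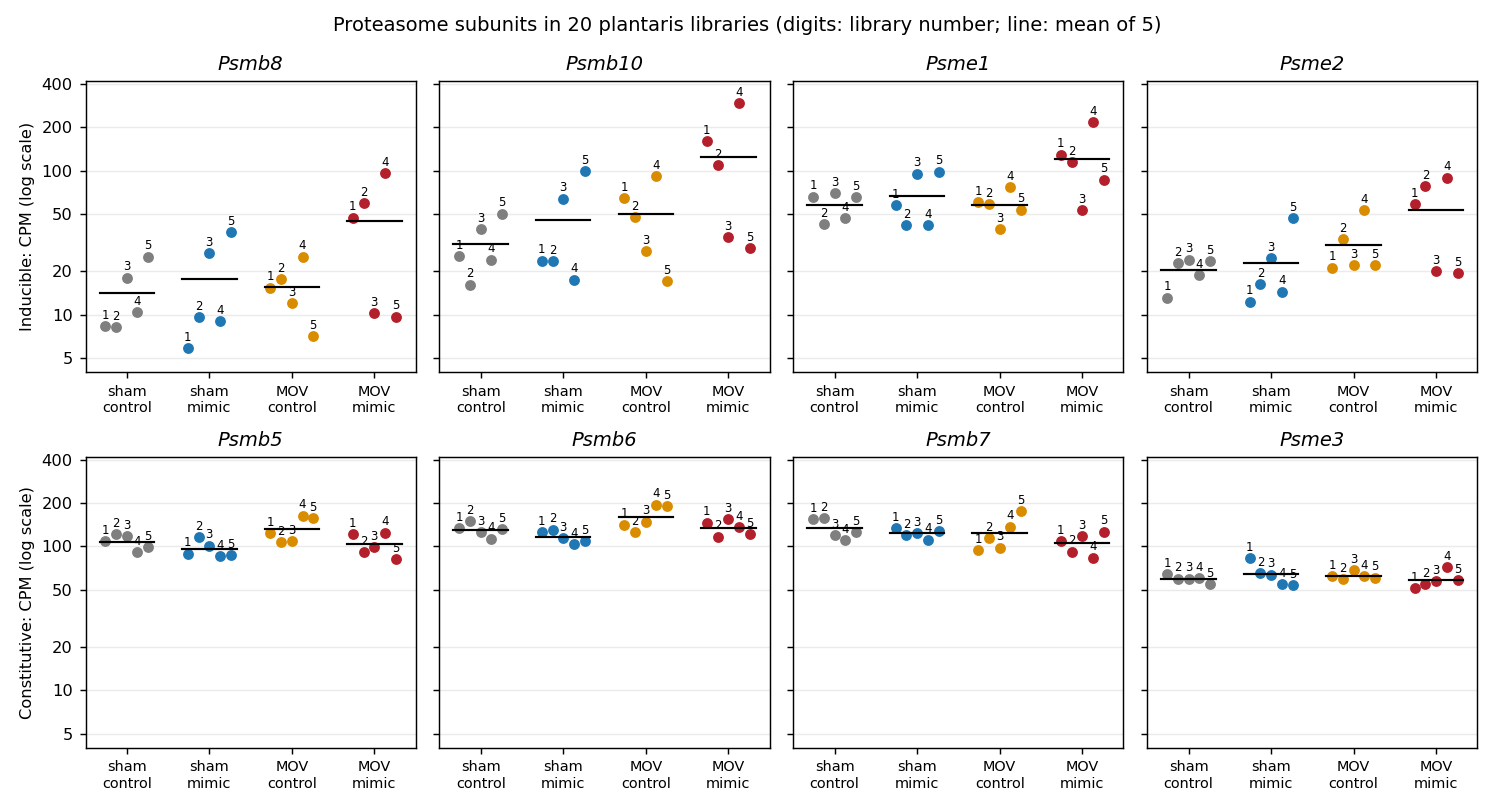
CPM on a log scale for the 4 inducible subunits (upper row) and the 4 constitutive subunits (lower row) in 20 libraries; points are single libraries numbered within their group and the line is the mean of 5. MOV mimic libraries 1, 2 and 4 stand high for every inducible subunit, up to 294 CPM for Psmb10, while libraries 3 and 5 lie within the joint span of the other groups. For Psme1 library 5 does so only through sham mimic, as it lies above every sham control and MOV control library. The constitutive subunits stay within a 2.09-fold range.

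The constitutive subunits kept to a narrow range in the same libraries. Psmb5 (ENSMUSG00000022193, chr14:54614120-54617995), the counterpart of Psmb8, varied 2.00-fold, from 82.0 to 163.6 CPM, with a mean of 104 ± 18.8 CPM in MOV mimic, 132 ± 26.7 CPM in MOV control, and 96.0 ± 13.1 and 108 ± 12.9 CPM in the mimic and control muscles of sham mice (SD, n = 5 each). Psmb6 (ENSMUSG00000018286, chr11:70525324-70527858), the counterpart of Psmb9, varied 1.89-fold, from 103.3 to 195 CPM. Psmb7 (ENSMUSG00000026750, chr2:38588046-38643952), the counterpart of Psmb10, varied 2.09-fold, from 83.6 to 175 CPM. Psme3 (ENSMUSG00000078652, chr11:101316213-101323537) varied least, 1.61-fold, from 51.4 to 83.0 CPM. Within groups the coefficient of variation was between 5.71% and 26.8% for constitutive subunits and between 21.6% and 86.8% for inducible subunits. The highest of the inducible values, that of Psmb10, was in MOV mimic, where the 4 inducible subunits had coefficients of variation from 51.3% to 86.8%.

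The effect of the mimic without overload was asked with sham mimic against sham control, muscles of the same mice that were fitted here as unpaired. The inducible subunits had log2 fold changes of 0.56 (SE 0.47) for Psmb10, 0.34 (SE 0.51) for Psmb8, 0.21 (SE 0.26) for Psme1 and 0.16 (SE 0.34) for Psme2. The constitutive subunits had values of -0.17 (SE 0.12) for Psmb5, -0.16 (SE 0.11) for Psmb6, -0.12 (SE 0.12) for Psmb7 and 0.10 (SE 0.12) for Psme3. No member was called at an adjusted p under 0.05 by edgeR, and none by DESeq2, against 0.0% of the 14746 genes tested with either tool. No member was under an unadjusted p of 0.05 with edgeR, against 1.72% of genes, and the groups overlapped for each member, whereas 0.339% of genes did not overlap. The inducible values rested on sham mimic library 5, and without it Psmb8 was at -0.12 and Psme2 at -0.27 while Psmb10 was at 0.06.

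The effect of overload under the control virus was asked with MOV control against sham control, between different mice. Psmb10 had a log2 fold change of 0.69 (SE 0.41) and Psme2 of 0.58 (SE 0.27), with edgeR adjusted p values of 0.397 and 0.275. Psmb8 was at 0.15 (SE 0.37) and Psme1 at -0.01 (SE 0.19). The catalytic constitutive subunits Psmb5 and Psmb6 were at 0.30 (SE 0.15) and 0.30 (SE 0.14), with edgeR adjusted p values of 0.318 and 0.289, Psmb7 was at -0.11 (SE 0.18) and Psme3 at 0.07 (SE 0.10). No member was called by edgeR or DESeq2, against 0.00668% and 6.1% of 14974 genes. None was under an unadjusted p of 0.05 with edgeR, against 18.2%, and the groups overlapped for each member, whereas 4.89% of genes did not overlap. MOV control library 4 was the highest of its group for all 4 inducible subunits, and without it Psmb8 was at -0.12, Psme1 at -0.14, Psmb10 at 0.33 and Psme2 at 0.26. Psme1 turned to 0.11 without MOV control library 3.

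Under the mimic, MOV mimic was compared with sham mimic, which uses the MOV mimic libraries in which the set was first noticed. The log2 fold changes were 1.46 (SE 0.64) for Psmb10, 1.33 (SE 0.65) for Psmb8, 1.22 (SE 0.47) for Psme2 and 0.85 (SE 0.36) for Psme1. The edgeR adjusted p values were 0.356, 0.400, 0.321 and 0.341 in the same order. No member was called by edgeR or DESeq2, against 0.0% and 1.48% of 14918 genes. Psmb10, Psme1 and Psme2, 3 of the 4 inducible subunits, were under an unadjusted p of 0.05 with edgeR, beside 13.4% of genes, and nothing is read from this count because the MOV mimic libraries chose the set. The constitutive subunits lay between -0.21 (SE 0.14) for Psmb7 and 0.22 (SE 0.12) for Psmb6. The groups overlapped for each member, whereas 2.73% of genes did not overlap. Without MOV mimic library 4 Psmb10 was at 0.87 and Psmb8 at 0.84, and without sham mimic library 5 they were at 1.95 and 1.79.

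MOV mimic against MOV control is the contrast in which the set was noticed, and its values are a description from which nothing is inferred. All 4 inducible subunits were higher on average in MOV mimic, with log2 fold changes of 1.52 (SE 0.55) for Psmb8, 1.33 (SE 0.59) for Psmb10, 1.07 (SE 0.30) for Psme1 and 0.81 (SE 0.42) for Psme2. All 4 constitutive subunits were on the other side of 0, at -0.34 (SE 0.17) for Psmb5, -0.24 (SE 0.15) for Psmb6, -0.22 (SE 0.19) for Psmb7 and -0.08 (SE 0.12) for Psme3. In fits without a replicate block no member was called by edgeR or DESeq2, beside 0.0% and 0.0197% of 15220 genes, and the groups overlapped for every member, against 0.762% of genes without overlap. Without MOV mimic library 4 the inducible values were 1.04 for Psmb8, 0.75 for Psmb10, 0.75 for Psme1 and 0.54 for Psme2.

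The interaction of surgery and virus, which contains the contrast just described, asked whether the mimic difference depended on overload. Its log2 values were 1.19 (SE 0.81) for Psmb8, 0.86 (SE 0.43) for Psme1, 0.78 (SE 0.82) for Psmb10 and 0.65 (SE 0.58) for Psme2, and between -0.19 (SE 0.17) for Psme3 and -0.08 (SE 0.18) for Psmb6 among the constitutive subunits. With 1 library left out, the inducible values were lowest without MOV mimic library 4, at 0.71 for Psmb8, 0.54 for Psme1, 0.19 for Psmb10 and 0.38 for Psme2. Without sham mimic library 5 they were 1.65 for Psmb8, 1.03 for Psme1, 1.27 for Psmb10 and 1.08 for Psme2. Among the constitutive subunits Psmb7 lay between -0.19 and 0.07 and Psmb6 between -0.16 and 0.01 when 1 library was left out. No member was called by edgeR or DESeq2, against 0.0% and 0.00619% of 16166 genes. The comparisons share groups with each other, so their values are not independent of one another.

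**Figure D2:**
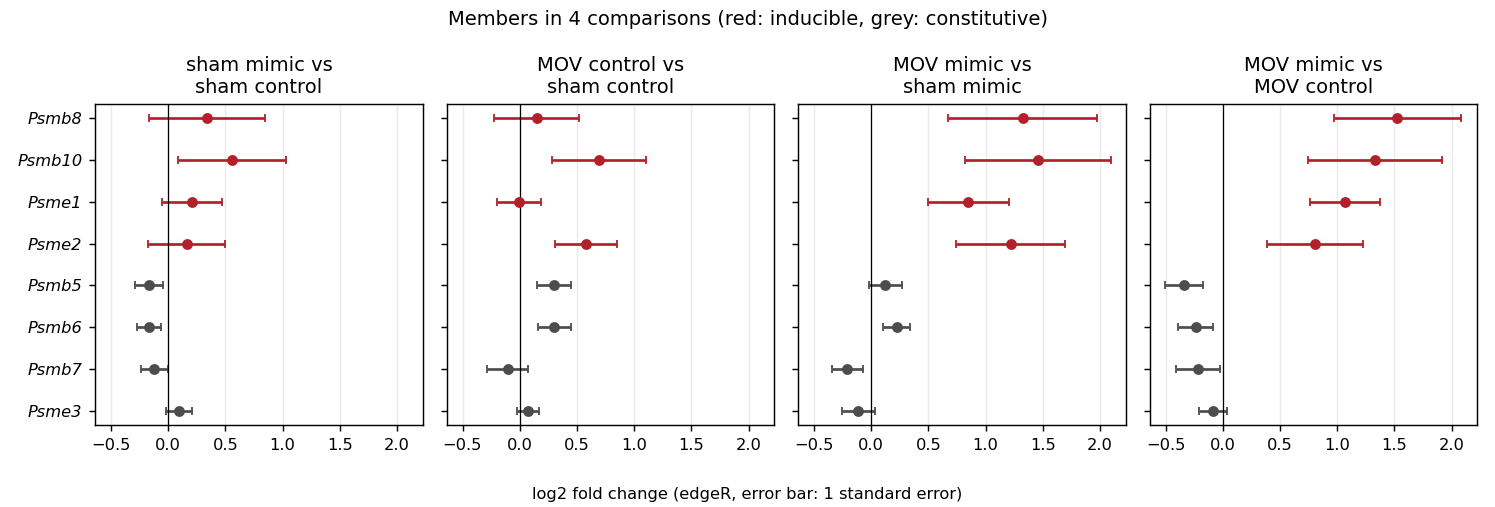
Log2 fold change with 1 standard error (edgeR, 5 libraries in each group) of the 4 inducible subunits in red and the 4 constitutive subunits in grey, in 4 comparisons. The inducible subunits lie between 0.81 and 1.52 in MOV mimic against MOV control, where the constitutive subunits lie between -0.34 and -0.08, and the bars are widest for Psmb8 and Psmb10.

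Ratios within a library do not depend on library size, so each inducible subunit was set against its counterpart. The ratio of Psmb8 to Psmb5 counts was 0.0765, 0.0669, 0.154, 0.114 and 0.256 in sham control libraries 1 to 5 and 0.0656, 0.0830, 0.265, 0.106 and 0.429 in sham mimic. It was 0.125, 0.165, 0.111, 0.155 and 0.0455 in MOV control and 0.388, 0.656, 0.104, 0.771 and 0.118 in MOV mimic. Counts in these ratios are not scaled to gene length, so a ratio is compared between libraries and not with 1. The ratio of Psmb10 to Psmb7 counts was 0.164, 0.103, 0.325, 0.218 and 0.398 in sham control and 0.177, 0.197, 0.521, 0.157 and 0.772 in sham mimic. It was 0.684, 0.414, 0.282, 0.668 and 0.0979 in MOV control and 1.48, 1.19, 0.290, 3.51 and 0.229 in MOV mimic, where libraries 1, 2 and 4 had higher ratios than any library of the other groups. The ratio of summed Psme1 and Psme2 to Psme3 counts was 1.23, 1.09, 1.57, 1.09 and 1.62 in sham control and 0.841, 0.896, 1.89, 1.03 and 2.71 in sham mimic. It was 1.31, 1.55, 0.889, 2.09 and 1.25 in MOV control and 3.67, 3.53, 1.27, 4.27 and 1.82 in MOV mimic.

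Exact two-sided permutation tests were run on the log2 of these 3 ratios in the 3 comparisons other than MOV mimic against MOV control, with p values adjusted over the 9 tests and a smallest possible p of 0.00794. The p values of MOV mimic against sham mimic are not independent of the choice of members, since the MOV mimic libraries are those in which the set was noticed. The PA28 ratio differed by 1.00 (SE 0.47) on the log2 scale between MOV mimic and sham mimic, higher in 3 MOV mimic libraries than in any sham mimic library (exact p = 0.0794, adjusted 0.571). The Psmb10 to Psmb7 ratio differed by 1.51 (SE 0.88) in the same comparison (exact p = 0.127, adjusted 0.571) and the Psmb8 to Psmb5 ratio by 1.04 (SE 0.80, exact p = 0.214, adjusted 0.643). The differences between sham mimic and sham control were 0.30, 0.44 and 0.02 for Psmb8 to Psmb5, Psmb10 to Psmb7 and the PA28 ratio, and those between MOV control and sham control were -0.10, 0.69 and 0.07 in the same order, with exact p values of at least 0.317. Without sham mimic library 5 the Psmb10 to Psmb7 difference between the sham groups was 0.09. Between the control groups it was 0.42 without sham control library 2 and 1.15 without MOV control library 5. Between MOV mimic and MOV control the differences were 1.44 (SE 0.69), 1.26 (SE 0.91) and 0.95 (SE 0.39), as a description, and without MOV mimic library 4 they were 1.10, 0.74 and 0.78. The mean log2 level of the 4 inducible less that of the 4 constitutive subunits was 1.15 (SE 0.59) higher in MOV mimic than in MOV control, 1.09 (SE 0.67) higher than in sham mimic, and differed by 0.24 (SE 0.47) between the sham groups and by 0.18 (SE 0.36) between the control groups. Without sham mimic library 5 the difference between the sham groups was -0.08, and between the control groups it was 0.03 without MOV control library 4 and 0.42 without MOV control library 5.

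To set levels of different genes beside each other, CPM were divided by the length in kilobases of the longest coding transcript, taken from the GENCODE M1 models. On that scale Psmb8 made up 6.56% ± 3.48, 8.82% ± 6.56, 5.996% ± 2.26 and 16.7% ± 11.1 of Psmb8 and Psmb5 together in sham control, sham mimic and the corresponding MOV groups (SD, n = 5 each). Psmb10 made up 17.6% ± 7.31, 23.1% ± 13.0, 26.5% ± 12.7 and 44.8% ± 25.1 of Psmb10 and Psmb7 in the same order. With exon-union lengths, an alternative chosen after seeing the data, the Psmb8 share was 4.26, 5.83, 3.87 and 11.498%, and the Psmb10 share 18.2, 23.8, 27.3 and 45.7%. In single MOV mimic libraries the Psmb10 share was 57.4, 52.1, 20.9, 76.2 and 17.3%, and it was 38.5, 27.4, 20.5, 37.9 and 8.21% in MOV control. Psme1 and Psme2 together made up 76.3% ± 3.37, 75.6% ± 8.69, 77.1% ± 5.51 and 85.9% ± 6.71 of the 3 PA28 genes, so the inducible cap genes were the larger part in every library, the lowest share being 67.4%. The groups overlapped for each share.

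**Figure D3:**
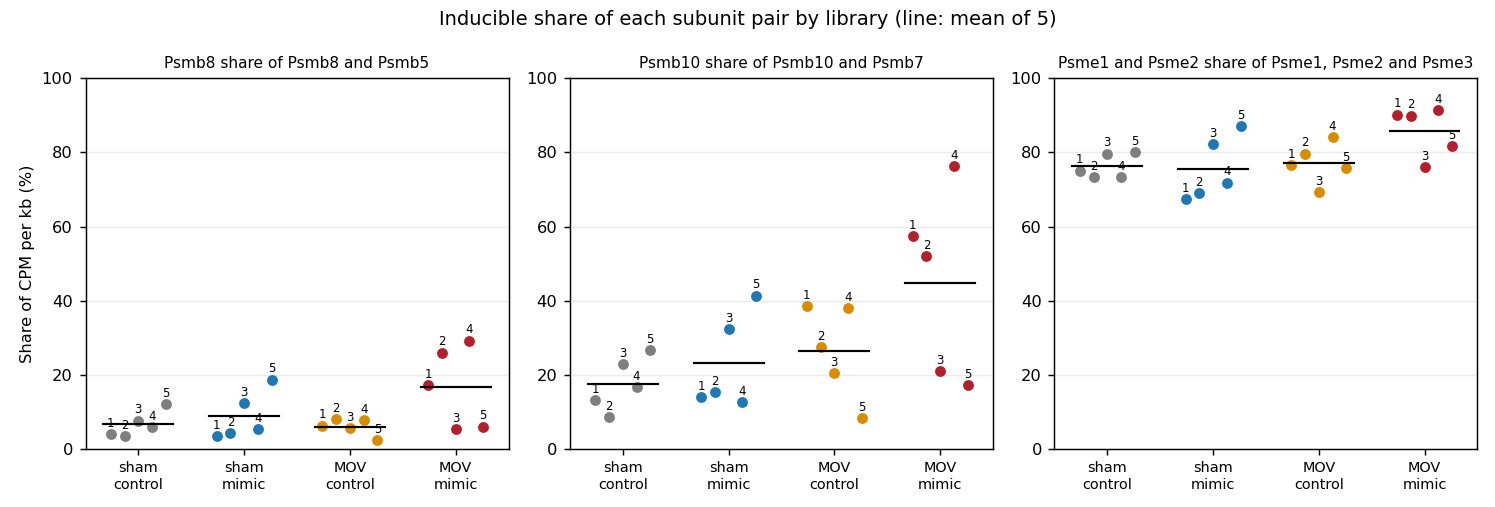
Share of the inducible subunit in each set of counterparts, in percent of CPM per kilobase of the longest coding transcript, by library (points, numbered within their group) with the mean of 5 (line). The Psmb8 share reaches at most 29.2%, while the Psmb10 share spans 8.21% to 76.2% and PA28 alpha and beta start at 67.4%.

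Across the 20 libraries the 6 pairs of inducible subunits had Pearson correlations of log2 CPM from 0.78 to 0.95, and from 0.75 to 0.95 after group means were removed. The 16 pairs of an inducible and a constitutive subunit had correlations from -0.59 to 0.27. These values describe libraries that came in pairs from 10 mice. The libraries with the highest mean inducible level were MOV mimic 4, 2 and 1, then sham mimic 5, MOV control 4, sham mimic 3 and sham control 5, so high libraries occurred in each group. Among 16158 other genes, those most like the mean of the 4 inducible subunits were H2-T23 (r = 0.98 over 20 libraries, 0.97 with group means removed), Gbp3 (0.95 and 0.95), Tap1 (0.94 and 0.93), H2-Q4 (0.94 and 0.93) and H2-T22 (0.93 and 0.92). H2-T23, H2-Q4 and H2-T22 are MHC class I genes, Tap1 codes for a subunit of the transporter that carries peptides into the endoplasmic reticulum, and Gbp3 codes for a guanylate-binding protein. Without MOV mimic library 4, the highest in the series, these correlations were 0.97, 0.94, 0.93, 0.91 and 0.91. H2-T23 was at 119.9, 139.8, 30.7, 266 and 21.8 CPM in MOV mimic and at 40.9, 46.7, 28.8, 66.4 and 15.0 CPM in MOV control. Libraries 3 and 5 were the lowest of MOV mimic, as for the 4 inducible subunits but not for the constitutive ones. Tap1 was at 53.5, 130.3, 20.7, 178 and 14.1 CPM and 26.5, 36.8, 12.4, 79.0 and 10.6 CPM in the same 2 groups. H2-T23, H2-Q4 and H2-T22 belong to a family of near-identical genes, so their counts are uncertain. The genes most like the mean of the 4 constitutive subunits were Eif3g (r = 0.91), Reep1 (0.89), Zcchc17 (0.89), Derl1 (0.89) and Pfdn1 (0.89). Eif3g codes for a subunit of translation initiation factor 3 and Pfdn1 for a subunit of the prefoldin chaperone.

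The known route from interferon gamma to the inducible subunits was covered by 10 genes, of which those given by library were picked after their values were seen. Irf1, an interferon-induced transcription factor, was at 27.5, 97.7, 17.2, 113 and 15.8 CPM in MOV mimic and at 21.3, 31.6, 15.7, 65.1 and 10.2 CPM in MOV control. Nlrc5, the activator of MHC class I genes, was at 29.6, 90.6, 14.8, 124 and 5.58 CPM and 15.8, 21.7, 12.02, 53.0 and 4.79 CPM in these groups. For both genes libraries 2 and 4 were high in MOV mimic and library 4 in MOV control, and the groups overlapped. In the sham groups library 5 stood highest, with Irf1 at 10.3, 15.3, 16.2, 17.9 and 46.4 CPM in sham control and 8.60, 13.1, 24.5, 14.1 and 53.1 CPM in sham mimic. Ifng itself was at 10.4 CPM in MOV mimic library 4 and at 2.76 CPM in library 2, and under 1 CPM in the other 18 libraries. Over 20 libraries the correlation with the mean inducible level was 0.89 for Irf1, 0.90 for Nlrc5, 0.89 for Irf8 and 0.85 for Socs1, and -0.64 for Jak1, -0.56 for Ifngr2 and -0.20 for Jak2. With the mean constitutive level the 10 genes had correlations between -0.66 and 0.25. None of the 9 tested genes of this route was called by edgeR in any of the 4 comparisons.

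Leukocyte markers were examined in the same libraries. The 20 markers summed to between 183 and 803 CPM in sham control, 186 and 732 CPM in sham mimic, 174 and 669 CPM in MOV control and 378 and 767 CPM in MOV mimic, and none of the markers was at 0 in every library of a group. Ptprc, the pan-leukocyte marker, was at 63.2, 91.6, 37.5, 59.4 and 18.8 CPM in MOV mimic and at 31.4, 35.3, 33.8, 12.4 and 14.1 CPM in MOV control. Cd8a, a marker of cytotoxic T cells, was at 7.08, 4.96, 3.69, 7.15 and 1.71 CPM and 1.41, 2.91, 1.91, 0.190 and 1.71 CPM. The Ptprc levels of MOV mimic libraries 1, 2 and 4, which were high for the inducible subunits, were the 3 highest of the series. MOV control library 4, which was highest in its group for the inducible subunits, had the lowest Ptprc, Cd8a and summed markers of its group, the sum being 174 CPM. Sham control library 5, high for Irf1 and Nlrc5, had the second highest sum of its group, 702 CPM. In MOV mimic the sum was 579, 767 and 493 CPM in libraries 1, 2 and 4 and 668 and 378 CPM in libraries 3 and 5. Lyz2, a gene of macrophages and neutrophils, was at 328, 430, 441, 227 and 263 CPM in MOV mimic libraries 1 to 5. Its level was thus highest in library 3, which was low for the inducible subunits, and lowest in library 4. Lyz2 made up most of the sum in every library but MOV mimic library 4. Without it, an alternative chosen after seeing the data, the other 19 markers summed to 251, 337, 227, 265 and 116 CPM in MOV mimic libraries 1 to 5, so libraries 1, 2 and 4 were the 3 highest of that group. On the same sum of 19 markers MOV control library 4 was still the lowest of its group at 56.3 CPM, and sham control library 5, at 164 CPM, was below libraries 3 and 4 of its group. In MOV mimic against MOV control 16 of 18 tested leukocyte markers had a log2 fold change over 0, with a median of 1.04 beside -0.01 over all genes tested, and 5 were under an unadjusted p of 0.05, beside 4.21% of all genes, with none called by edgeR. In MOV mimic against sham mimic 10 of 17 were under it, beside 13.4% of all genes, with none called by edgeR and a median of 1.29 beside 0.02. Nothing is read from these marker counts, because both comparisons use the MOV mimic libraries in which the set was noticed. The correlation of Ptprc with the mean inducible level was 0.67 over 20 libraries and 0.51 with group means removed, and over the 20 markers the median was 0.38. The markers ran from -0.31 for Cd14 to 0.74 for Ly6c2, with Lyz2 at 0.10, Adgre1 at 0.14 and Cd68 at 0.20. For the other marker lists the median log2 fold change in MOV mimic against MOV control was 0.06 for 4 endothelial genes, 0.23 for 4 genes of fibroblasts and fibro-adipogenic cells, -0.43 for 3 satellite cell genes and -0.25 for the 8 fibre genes, with none called by edgeR. The part of leukocytes or of interferon signalling in the inducible levels was not tested.

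**Figure D4:**
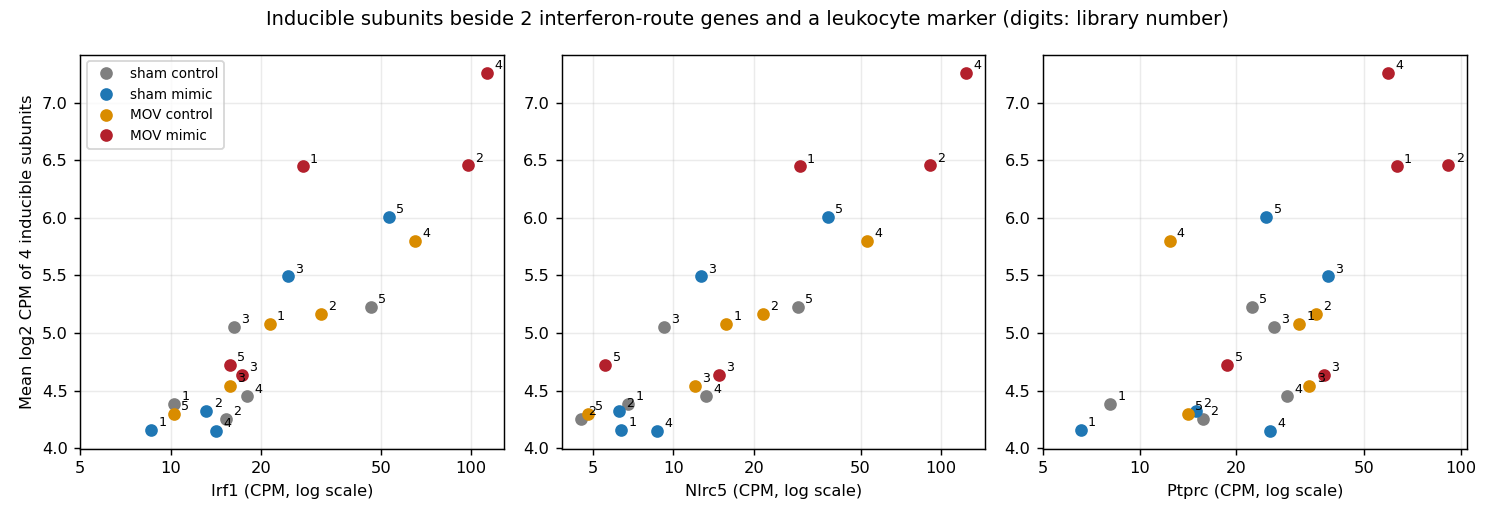
Mean log2 CPM of the 4 inducible subunits (vertical axis) against CPM on a log scale of Irf1, Nlrc5 and Ptprc (horizontal axes) in 20 libraries, coloured by group and numbered within it. In every group the library highest for Irf1 and Nlrc5 is also the highest for the inducible subunits, and MOV control library 4 is so at the lowest Ptprc of its group, 12.4 CPM.

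The other proteasome genes gave the members a background from the same machine. The list held 40 genes: 7 alpha subunits and 4 further beta subunits of the 20S barrel, 6 ATPases and 13 non-ATPase subunits of the 19S cap, and 10 assembly factors, activators and inhibitors. None of the 40 was called by edgeR in any of the 4 comparisons. The median log2 fold change in MOV mimic against MOV control was -0.14 for the alpha subunits, -0.12 for the further beta subunits, -0.16 for the 19S ATPases, -0.08 for the 19S non-ATPase subunits and -0.10 for the assembly group, beside 1.2 for the 4 inducible and -0.23 for the 4 constitutive subunits. Their extremes ran from -0.45 (SE 0.19) for Psmg1, a chaperone of barrel assembly, to 0.10 (SE 0.25) for Pomp, a maturation factor of the barrel. Over 20 libraries the median correlation with the mean inducible level lay between -0.06 for the 19S non-ATPase subunits and 0.19 for the alpha subunits in these 4 lists of structural subunits, and with the mean constitutive level it was 0.65 for the alpha subunits, 0.78 for the further beta subunits, 0.79 for the 19S ATPases and 0.69 for the 19S non-ATPase subunits.

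After overload the assembly group had the highest median of the proteasome lists other than the inducible subunits. In MOV control against sham control 9 of its 10 genes had a log2 fold change over 0, with a median of 0.35 beside 0.04 over all genes tested, and 4 were under an unadjusted p of 0.05 with edgeR, beside 18.2% of all genes. Psmg4, an assembly chaperone, was at 0.70 (SE 0.20) with an edgeR adjusted p of 0.103, and Psme4, the activator PA200, was at the other end at -0.26 (SE 0.14). Psmd13, a 19S lid subunit, was at 0.47 (SE 0.12) with an edgeR adjusted p of 0.0809. Pomp in MOV mimic against sham mimic was at 0.67 (SE 0.22) and Psme4 at -0.44 (SE 0.16). The transcription factor Nfe2l1, which drives constitutive proteasome genes, was at -0.29 (SE 0.14) in the same comparison and at -0.19 (SE 0.15) between MOV mimic and MOV control. None of the regulators Nfe2l1, Nfe2l2, Ddi2 and Ngly1 was called by edgeR.

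**Figure D5:**
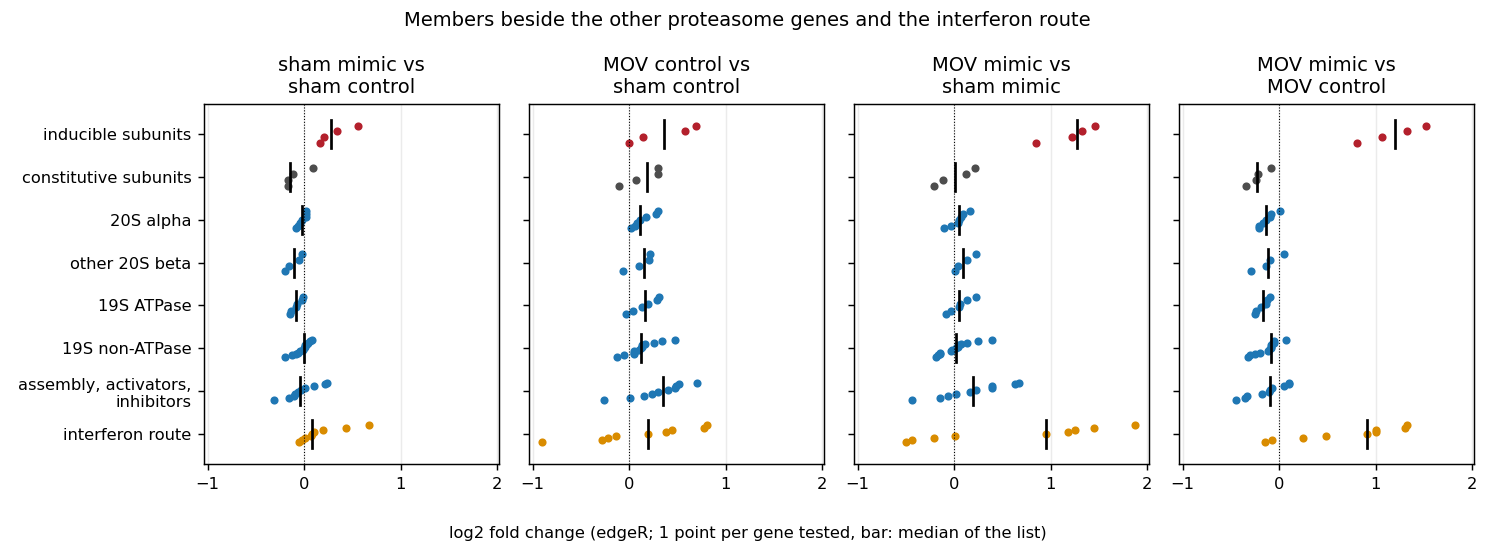
Log2 fold change of each tested gene (points) with the list median (bar) for the inducible subunits, the constitutive subunits, 5 lists of other proteasome genes and the interferon route, in 4 comparisons. In both MOV mimic comparisons the inducible medians are 1.27 and 1.2, and the medians of the other proteasome lists lie between -0.16 and 0.20.

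Some counts could hold reads of other genes. Psme2 has a processed copy, Psme2b-ps, which had 103 to 484 counts in a library, and reads of near-identical copies could have been split between them. Psmb5-ps and Psmb6-ps had 0 counts in every library and Psmb7-ps2 had 1 count in 1 library. Psme1 overlaps Emc9, Psmb5 overlaps Mir686 and Psmb7 overlaps Gm13586 in the annotation, and whether the counting used strand was not given in the sources used here.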

How the data were processed

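RNA was extracted from whole plantaris with TRI reagent and a column kit, and libraries were made with the NEBNext Ultra II kit. Per the labels and the study's methods, the authors trimmed reads with Trim Galore 0.6.10 and cutadapt 4.4, checked them with FastQC 0.11.9, aligned them to GRCm38 with HISAT2 2.0.5 and counted them per Ensembl gene with featureCounts 1.5.0-p3. The deposited values are raw counts of 54532 genes in 20 libraries, with no normalization. Which annotation release was used, how strand was set and how reads with several matches were treated was not given in the sources used here, and reads of near-identical genes may be split or lost.

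Here, each comparison was fitted on the counts of its 10 libraries with edgeR 4.0.16 (R 4.3.3; filterByExpr, TMM, quasi-likelihood test), and p values were adjusted over all genes tested (Benjamini-Hochberg, threshold 0.05). Ratios used a prior count of 0.5 on the log2 scale and an exact permutation test over 252 splits, and correlations used log2 CPM with a prior count of 2. Alternatives were DESeq2 1.42.0, its size factors in edgeR, no filter on low counts, the replicate number as a block, all 20 libraries in 1 fit, another prior count and each library left out. On simulated counts the edgeR fit called 48% of genes changed 2-fold and 90% of genes changed 4-fold in sham mimic against sham control. For MOV mimic against sham mimic it called 43% and 79% of them. For MOV mimic against MOV control it called 38% and 81%. How often the fit would call genes as variable as the inducible subunits was not tested. Their coefficient of variation within a group was up to 86.8%. Libraries are separate muscles by their labels, and as each mouse gave 2 muscles, p values measure the spread between these muscles. The main fits and the exact tests treat the muscles as unpaired. Where both groups come from the same mice, they do not measure the mimic difference within a mouse. No 2 libraries of a group agreed within sampling noise.

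The members and lists were chosen with earlier results of these data known. By the rule for named genes, these are all members, the extreme genes of each list, the 5 genes most like each class mean, and copies of members. Other genes named from the lists, such as Irf1, Irf8, Ifng, Ifngr2, Ptprc, Cd8a and Lyz2, were chosen after their values were seen. The levels of Psmb9 were not analysed here, so its ratio to Psmb6 was left out and the inducible means cover 4 subunits. Lengths per kilobase came from GENCODE models of another build. Figures were drawn with matplotlib 3.10.9 in Python 3.11.15.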

Additional observations from a re-analysis of the deposited data

How the results depend on the processing

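No member was called by edgeR under its own normalization, DESeq2 size factors, no filter, a single fit of 20 libraries, the replicate block or any omission of 1 library, in the 4 comparisons. Counts over all genes depended on the tool. In MOV control against sham control 1 gene was called by edgeR, 913 by DESeq2, 388 without a filter, 36 with all 20 libraries and 722 by DESeq2 with the replicate block, and between 0 and 426 when 1 library was left out, with 426 without sham control replicate 3, 318 without MOV control replicate 5 and 6 without MOV control replicate 3. In MOV mimic against sham mimic 0 genes were called by edgeR, 221 by DESeq2, 1 without a filter, 3 with all 20 libraries and 116 by DESeq2 with the block, and between 0 and 101 with 1 library left out, 101 being without MOV mimic replicate 5. In MOV mimic against MOV control these counts were 0 by edgeR, 3 by DESeq2, 1 with all 20 libraries and 127 by DESeq2 with the block. The 127 held 3 inducible subunits, Psmb8, Psmb10 and Psme1, beside 0.834% of genes, in the contrast that chose the members. The edgeR fit with the replicate block called 0 genes there. The numbers were not taken as pairing: in MOV mimic against MOV control equal numbers had correlations of deviations from 0.03 to 0.32, and 5 of 5 MOV mimic but 3 of 5 MOV control libraries correlated best with their own number, which is a hint from the data and not the design. Between equal numbers Psmb10 and Psme1 were higher in MOV mimic in 5 of 5, Psmb8 in 4, Psme2 in 3, Psmb6 and Psmb7 in 2, Psme3 in 1 and Psmb5 in 0, and Psmb8, Psmb10 and Psme1 ordered the numbers alike in both groups. In sham mimic against sham control the correlations were 0.01 to 0.66. The cause of these differences was not tested.

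Leaving out 1 library gave log2 fold changes between -0.12 and 0.66 for Psmb8, -0.27 and 0.32 for Psme2 and -0.00703 and 0.156 for Psme3 in sham mimic against sham control, and between -0.12 and 0.46 for Psmb8 and -0.14 and 0.11 for Psme1 in MOV control against sham control. The log2 ratio differences lay between -0.086 and 0.589 (Psmb8 to Psmb5), 0.09 and 0.67 (Psmb10 to Psmb7, lowest without sham mimic replicate 5) and -0.24 and 0.18 (PA28) in the first, and between -0.31 and 0.21 (Psmb8 to Psmb5), 0.42 and 1.15 (Psmb10 to Psmb7) and -0.0877 and 0.221 (PA28) in the second. In MOV mimic against sham mimic they lay between 0.70 and 1.43 (Psmb8 to Psmb5), 0.99 and 1.97 (Psmb10 to Psmb7) and 0.83 and 1.27 (PA28), and in MOV mimic against MOV control between 1.10 and 1.83, 0.74 and 1.73, and 0.78 and 1.22 in that order. The inducible less constitutive mean lay between -0.0788 and 0.444 in sham mimic against sham control, 0.03 and 0.42 in MOV control against sham control, 0.77 and 1.43 in MOV mimic against sham mimic and 0.83 and 1.49 in MOV mimic against MOV control. With exon-union lengths, chosen after seeing the data, the Psmb8 share was at most 20.6%, and Psme1 and Psme2 made up 64.9% and 64.3% of the PA28 genes in the control and mimic muscles of sham mice and 66.1% and 78.0% after MOV. Members had at least 77 counts in a library.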
